A study of Mus musculus with 65 samples.

Results

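CTCF sites of maturing erythroblasts (ERY) were compared with those of cells the authors name erythroid colony-forming units (CFUE). The comparison used ChIP-seq peak lists from sorted mouse bone marrow. Peaks lying mostly in repeats were left out, peaks of the 2 ERY lists and the 1 CFUE list that shared at least 1 bp were merged, and the 12055 merged sites were sorted by the lists that called them. Of these sites 624 were called in both ERY lists and not in CFUE (5.18% of all sites), 2838 in CFUE and in neither ERY list (23.5%), and 3762 in all 3 lists (31.2%). The 3 lists are 3 of the 53 CTCF and TAL1 lists of a study on the length of sheared chromatin in ChIP-seq.

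Both cell types came from male C57BL/6 mice of 5 to 8 weeks. By the labels, both gates took Ter119+ CD44+ cells negative for CD4, CD8, IL7Ra, CD11b, Ly6g and CD45R. Forward scatter, a measure of cell size, was low for ERY and high for CFUE and separated them. The names are those of the authors, and whether the CFUE gate holds colony-forming cells was not tested here. Chromatin was fixed with formaldehyde, sheared to an average of 250 bp and 276 bp in ERY replicates 1 and 2 and 222 bp in CFUE, and precipitated with the same CTCF antibody. CFUE chromatin was shorter than that of both ERY libraries, so stage and chromatin length cannot be told apart here. All 3 libraries were assessed as Pass by the authors. Whether the 2 ERY libraries came from separate animals is not given in the sources used here, and CFUE has 1 library, so no comparison of the stages has a replicate check on the CFUE side. With 2 lists against 1, an exact permutation test cannot go below p = 0.333 (1 in 3), and no such test was made.

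CTCF is a zinc finger protein that binds a long, conserved DNA motif. It marks boundaries between chromatin domains and, with cohesin, holds the bases of chromatin loops, and many of its sites are shared by most cell types. Between the CFUE and the late erythroblast stages a red cell precursor makes globin and heme, leaves the cell cycle, condenses its nucleus and clears its organelles before the nucleus is expelled. A peak list says where enrichment passed the caller's threshold, so a site missing from a list may be bound too weakly for that library to call it.

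A weaker shared site at the alpha-globin genes was added to examples from among the 10 strongest sites of each class. Their sequences are given below. Each is the GRCm38 sequence of the best match to a CTCF matrix of 19 bp in capitals, with 11 bp on either side, written 5′ to 3′ on the strand of the match. The first 5 were called in both ERY lists and not in CFUE, the next 3 in CFUE only and the last 3 in all 3 lists. The one at Hbq1b is the site of the alpha-globin genes. Only sites with a match are shown, and they do not stand for their class as a whole. Of the 10 strongest sites of CFUE only, 6 held a match and 5 lay at promoters, while all 3 shown did both.
Near Mcph1, chr8:18564838-18564856 (minus strand): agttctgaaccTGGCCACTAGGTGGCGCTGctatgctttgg
Near Uqcrfs1, chr13:30549061-30549079 (minus strand): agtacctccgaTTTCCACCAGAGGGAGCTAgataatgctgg
Taldo1 intron, chr7:141395023-141395041 (minus strand): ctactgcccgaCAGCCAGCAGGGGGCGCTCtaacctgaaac
Ksr1 exon, chr11:79030667-79030685 (plus strand): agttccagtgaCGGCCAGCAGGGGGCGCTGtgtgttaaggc
Add2 promoter, chr6:86085687-86085705 (minus strand): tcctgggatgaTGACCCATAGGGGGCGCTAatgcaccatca
Ptms promoter, chr6:124917368-124917386 (plus strand): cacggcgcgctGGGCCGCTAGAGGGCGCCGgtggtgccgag
Fkbp2 promoter, chr19:6979613-6979631 (plus strand): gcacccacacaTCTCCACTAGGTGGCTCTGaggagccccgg
Scaf11 promoter, chr15:96460986-96461004 (plus strand): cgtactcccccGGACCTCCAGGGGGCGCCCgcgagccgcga
Sec22c intron, chr9:121697925-121697943 (plus strand): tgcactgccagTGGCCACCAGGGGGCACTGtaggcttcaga
Gdf15 exon, chr8:70629892-70629910 (minus strand): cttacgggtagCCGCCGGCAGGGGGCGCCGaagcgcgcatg
Hbq1b promoter, chr11:32286930-32286948 (minus strand): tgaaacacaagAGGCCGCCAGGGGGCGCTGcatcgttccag

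ERY replicate 1 had 8284 peaks, ERY replicate 2 had 6629 and CFUE had 11990. At least 50% of the bases were soft-masked, that is annotated as repeats, in 8.80% and 8.12% of the peaks of ERY replicates 1 and 2 and in 29.4% of the CFUE peaks. Without these peaks the lists held 7555, 6091 and 8466 peaks. Of the 624 sites of both ERY lists and not CFUE, 30 overlapped a CFUE peak left out in this way. Of the 2838 sites of CFUE only, 46 overlapped an ERY peak left out in this way. Such sites are counted as not called. The median −log10 p of the peaks kept was 8.86 and 8.45 in ERY and 8.66 in CFUE, where the authors' lists start at 5. The depth of the libraries is not given in the lists, and −log10 p was used to rank peaks within a list only. The other lists drawn on below are CTCF in 8 further libraries of primary blood cells (LSK, CMP, MEP, GMP, CFUMk and iMk cells, with 2 each of LSK and iMk, and CMP and GMP assessed as Low pass), and 14 CTCF and 9 TAL1 libraries assessed as Pass in G1E-ER4+E2 cells. Of the 10 TAL1 libraries assessed as Pass, 1 was left out because its antibody label names CTCF. G1E-ER4+E2 is a mouse erythroid line without its own GATA1 that matures when estradiol activates a GATA1 fusion, here for 24 hours.

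The stages were compared beside the difference between the 2 ERY libraries. Of the 4386 sites in both ERY lists 14.2% were not called in CFUE (95% Wilson interval 13.2 to 15.3%). Of the 4377 sites shared by ERY replicate 2 and CFUE 14.1% were not called in ERY replicate 1 (13.1 to 15.1%), and of the 4983 sites shared by ERY replicate 1 and CFUE 24.5% were not called in ERY replicate 2 (23.3 to 25.7%). The order of these shares depended on the length of the lists. With the same number of strongest peaks from each list, CFUE missed 20.7% of the sites the 2 ERY lists shared (19.5 to 21.95%), ERY replicate 1 missed 17.4% (16.2 to 18.6%) and ERY replicate 2 missed 19.1% (17.9 to 20.4%) of those the other lists shared. Sites called in 1 list alone were 25.6% of the sites of ERY replicate 1, 17.6% of those of ERY replicate 2 and 33.6% of those of CFUE, and 20.98%, 22.3% and 23.5% with the same number of peaks. ERY replicate 1 shared 45.4% of the merged sites of the pair with CFUE and ERY replicate 2 shared 43.2% with it, against 47.6% between the 2 ERY lists. Among the 1000 strongest peaks of each list, ERY replicate 2 overlapped CFUE at 37.6% of sites and ERY replicate 1 overlapped CFUE at 35.5%. The 2 ERY lists overlapped each other at 36.1% there. Among the 2000 strongest, the 2 ERY lists overlapped at 43.0%, against 40.8% and 41.3% for ERY replicates 1 and 2 with CFUE. With the same number of peaks from each list these shares were 49.9%, 48.5% and 47.0%. Intervals here and below cover counting error only.

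**Figure D1:**
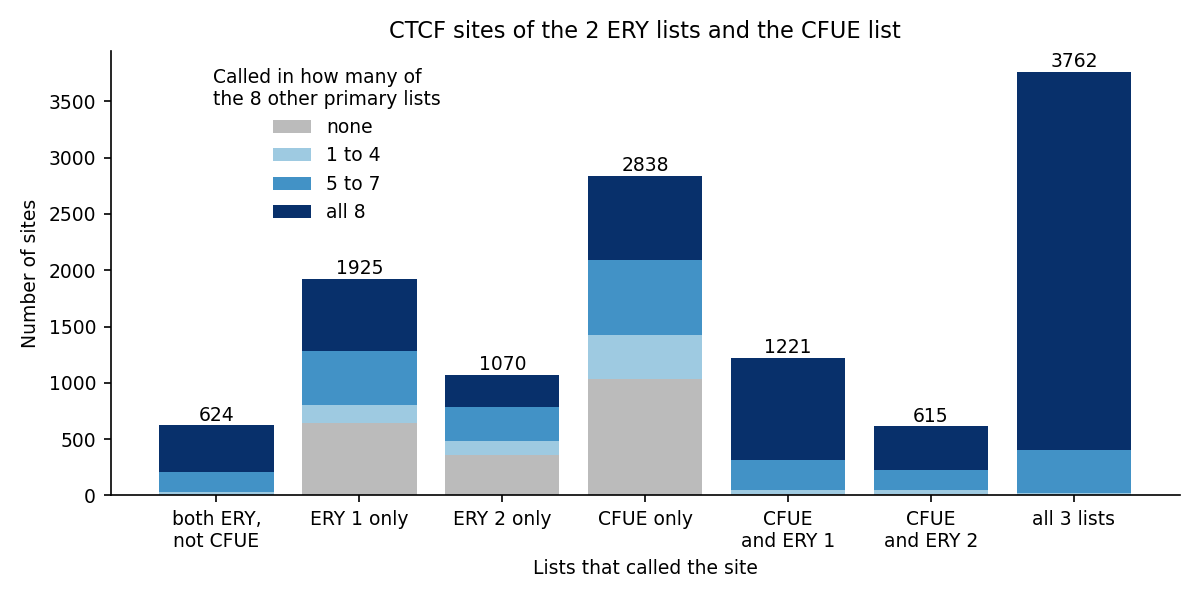
Number of merged CTCF sites (y axis) by the lists that called them (x axis), with colours for how many of the 8 other primary blood cell lists also called the site. Of the 624 sites in both ERY lists but not in CFUE nearly all were called in other blood cells. Of the 2838 sites of CFUE only, 1036 were called in none of the 8. The first class asks for 2 calls and the second for 1. Called in none were 11 of 1221 sites of CFUE and ERY replicate 1 and 10 of 615 of CFUE and ERY replicate 2. For ERY replicate 1 only and ERY replicate 2 only these shares were 33.4% and 33.8%.

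Whether a site was shared followed its strength in each list. In the strongest decile of ERY replicate 1, 98.3% of sites were called in CFUE and 97.3% in ERY replicate 2. In the strongest decile of ERY replicate 2, 98.4% were called in CFUE and 98.5% in ERY replicate 1. In the strongest decile of CFUE, 1.07% were in neither ERY list, against 74.5% in its weakest decile. Sites of both ERY lists and not CFUE had a median −log10 p of 7.95 in ERY replicate 1 and 7.35 in ERY replicate 2, while sites of all 3 lists had medians of 12.4 and 10.4 there. Sites of CFUE only had a median of 6.21 in CFUE, against 13.02 for the sites of all 3 lists.

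**Figure D2:**
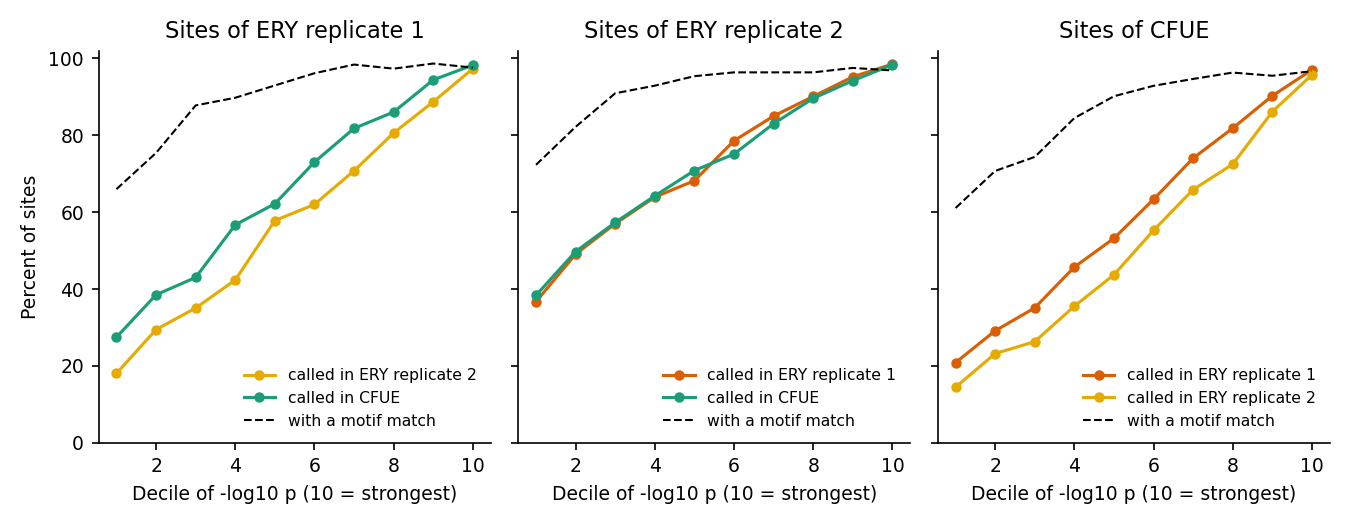
Percent of sites (y axis) called in each of the other 2 lists, by decile of −log10 p within a list (x axis, 10 being the strongest), for ERY replicate 1, ERY replicate 2 and CFUE, with the percent holding a CTCF motif match as a dashed line. ERY replicate 1 shared more of its sites with CFUE than with ERY replicate 2 in each of the 10 deciles, CFUE being the longer list, and in the strongest decile the lists shared at least 95.7% of sites.

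Motif matches differed in frequency between the classes. The matrix, learned from the 2000 strongest non-repeat peaks of LSK replicate 1, has NNGCCACNAGGGGGCGCNN as its most frequent bases (N where no base reaches 50%) and was searched on both strands. A match was found in 97.6% of the 624 sites of both ERY lists and not CFUE (Wilson interval 96.1 to 98.5%), in 64.2% of the 2838 sites of CFUE only (62.5 to 66.0%) and in 97.3% of the 3762 sites of all 3 lists (96.7 to 97.8%). Windows of the same lengths 10 kb away held a match in 23.6%, 18.2% and 32.5% of these cases. The sites of a single ERY list were close to those of CFUE only, with a match in 69.7% for ERY replicate 1 only and 67.6% for ERY replicate 2 only. CpG dinucleotides matter at CTCF sites because methylation of some of them weakens binding. The best match held at least 1 CG in 52.4% of matches in both ERY lists and not CFUE, 52.9% in CFUE only and 59.1% in all 3 lists.

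A second block of conserved bases lies before the core motif at some CTCF sites. The letters AGTNCC, beginning 11 positions before the match as in the sequence near Uqcrfs1, stood before 73 of the 609 matches in both ERY lists and not CFUE (11.99%, Wilson interval 9.64 to 14.8%). They stood before 142 of the 1823 matches of CFUE only (7.79%, 6.65 to 9.11%) and 261 of the 3660 matches of all 3 lists (7.13%, 6.34 to 8.01%). The remaining classes lay between 7.28% and 8.94%, and matches in windows 10 kb away had the letters in 1.55% of cases. These letters were chosen after the sequences were seen, and the share is given as a description.

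Nearly all sites of both ERY lists and not CFUE were also called in other blood cells. Only 5 of the 624 (0.801%) were called in none of the 8 other primary lists, and 417 (66.8%) were called in all 8. Of the 2838 sites of CFUE only, 1036 (36.5%) were called in none and 744 (26.2%) in all 8. The classes of a single ERY list were like it, with 33.4% of sites called in none and 33.5% in all 8 for ERY replicate 1 only, and 33.8% and 26.9% for ERY replicate 2 only. Sites with a motif match and a call in another primary list made up 62.3% of ERY replicate 1 only, 61.3% of ERY replicate 2 only and 56.4% of CFUE only (1600 sites, median −log10 p of 6.81). Sites with neither made up 26.03%, 27.6% and 28.6% of these classes (813 sites of CFUE only, median 5.68). Of the 3762 sites of all 3 lists 1 was called in no other primary list and 3362 (89.4%) in all 8.

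Per library, 91.8% ± 6.51 (SD, n = 8 libraries) of the sites of both ERY lists and not CFUE were called in the other primary lists, and 49.0% ± 6.94 of the sites of CFUE only. The difference of 42.8 percentage points was positive in 8 of 8 libraries (exact sign-flip permutation test, two-sided, p = 0.00781, the smallest that 8 libraries allow, and 0.0117 after Benjamini-Hochberg adjustment over 9 tests). The 8 libraries score the same sites and include 2 each of LSK and iMk. The test measures the spread between these libraries, not between sites or stages. The size of the difference depended on the sites admitted, and the first class asks for 2 calls where the second asks for 1. When ERY replicate 1 or ERY replicate 2 was left out, so that each class had 1 list, the difference was 4.71 and 8.61 points. It was 63.95 points with no repeat filter, 8.90 at −log10 p of at least 10, 26.3 with the same number of peaks from each list and 21.5 for sites with a motif match.

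Classes called in the same number of lists were also compared, a choice made after the data were seen. The tests again measure the spread between libraries only. In the other primary lists, sites of both ERY lists and not CFUE were called in 91.8% ± 6.51 and sites of CFUE and 1 ERY list in 91.9% ± 5.28 (SD, n = 8 libraries). No difference was detected (−0.12 points ± 1.98, SD, positive in 5 of 8 libraries, exact sign-flip permutation test, p = 0.906). Sites of CFUE only were called in 49.0% ± 6.94, and sites of 1 ERY list only in 54.8% ± 7.21. This difference of −5.80 points was negative in 8 of 8 libraries (exact sign-flip permutation test, p = 0.00781, adjusted 0.0117), but was 0.58 points (p = 0.648, same exact test) when the lists were cut to the same number of strongest peaks.

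In G1E-ER4+E2 cells the same comparisons gave larger differences. Sites of both ERY lists and not CFUE were called in 82.3% ± 7.08 of cases (SD, n = 14 libraries), sites of CFUE and 1 ERY list in 76.1% ± 8.04, sites of CFUE only in 34.4% ± 6.53 and sites of 1 ERY list only in 44.6% ± 6.88. Sites of both ERY lists and not CFUE exceeded those of CFUE only by 48.0 points, a gap of 10.3 and 13.1 points when ERY replicate 1 or 2 was left out, and exceeded those of CFUE and 1 ERY list by 6.29 points. Sites of CFUE only lay 10.3 points below those of 1 ERY list only. Each of the 3 differences had the same sign in 14 of 14 libraries (exact sign-flip permutation test, p = 0.000122, adjusted 0.000366). The gap of 6.29 points was 3.001 points at sites away from promoters. The 14 libraries are of 1 cell line, and the test measures the spread between its libraries, not between sites.

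**Figure D3:**
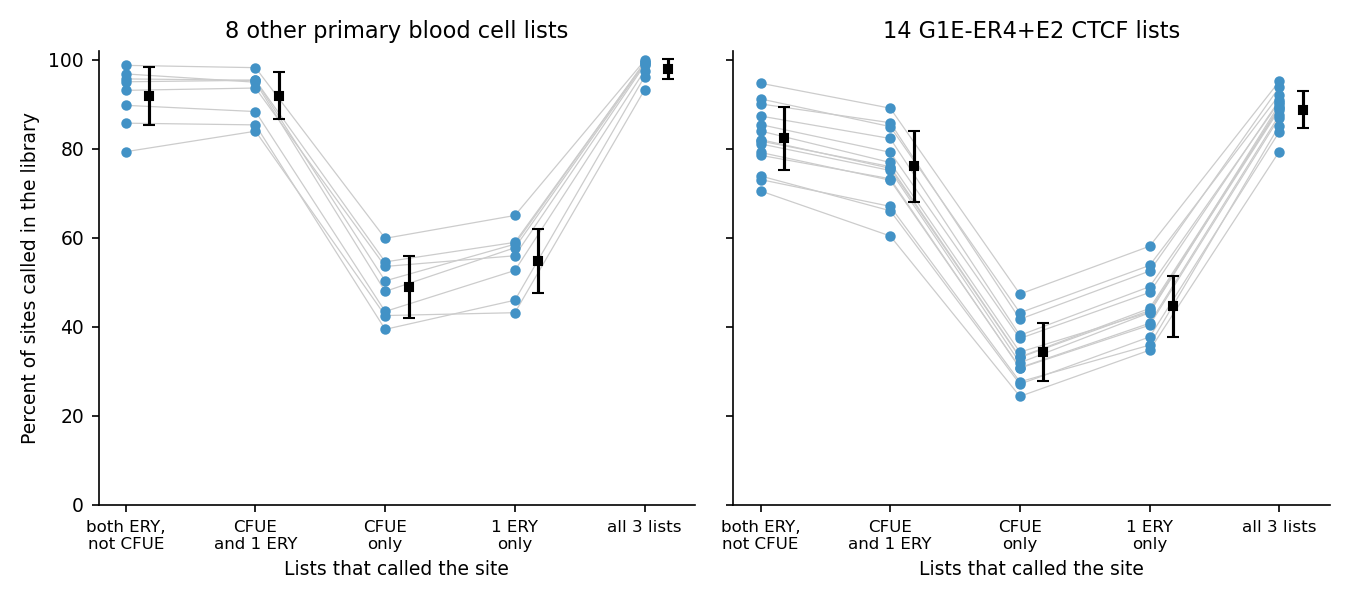
Percent of the sites of each class (x axis) that were called in each of the 8 other primary lists (left) and the 14 G1E-ER4+E2 CTCF lists (right). Points are libraries, joined by grey lines, and squares with bars are the mean and SD. In all 14 G1E-ER4+E2 libraries the sites of both ERY lists and not CFUE lie above those of CFUE and 1 ERY list.

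TAL1, the basic helix-loop-helix factor that erythroid precursors need, met few of these sites. Its peaks in G1E-ER4+E2 cells overlapped 1.64% ± 0.486 (SD, n = 9 libraries) of the sites of both ERY lists and not CFUE and 1.39% ± 0.510 of those of CFUE only. The difference of 0.25 points was positive in 8 of 9 libraries (exact sign-flip permutation test, p = 0.0117, adjusted 0.0151). It was −0.61 points without ERY replicate 2 and −0.0756 points for the middle 200 bp of each site, so its direction depended on these choices. Between classes of equal list number, sites of both ERY lists and not CFUE exceeded sites of CFUE and 1 ERY list by 0.26 points in 7 of 9 libraries (same exact test, p = 0.0234, adjusted 0.0264). Sites of CFUE only exceeded sites of 1 ERY list only by 0.31 points in 9 of 9 libraries (same exact test, p = 0.00391, adjusted 0.00879). The 9 TAL1 libraries are of 1 cell line and score the same sites. These tests measure the spread between its libraries, not between sites. At least 5 of the 9 TAL1 libraries called 10 of the 624 sites, 36 of the 2838 and 80 of the 3762 sites of all 3 lists.

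Promoters, taken as 1000 bp around GENCODE transcript starts, held a smaller share of the sites of both ERY lists and not CFUE than of those of CFUE only or of all 3 lists. They held 77 of the 624 sites of both ERY lists and not CFUE (12.3%, Wilson interval 9.99 to 15.2%), 610 of the 2838 sites of CFUE only (21.5%, 20.02 to 23.04%) and 958 of the 3762 sites of all 3 lists (25.5%, 24.1 to 26.9%). Sites of a single ERY list lay at promoters in 10.4% for ERY replicate 1 and 14.1% for ERY replicate 2. Sites of CFUE and 1 ERY list lay at promoters in 17.1% with ERY replicate 1 and 27.97% with ERY replicate 2. The classes of 1 list had the same order as the lists themselves. Over all peaks kept, 18.8% and 22.1% lay at promoters in ERY replicates 1 and 2, against 22.9% in CFUE. The share of 12.3% for sites of both ERY lists and not CFUE was below that of either ERY list. Among the 6091 strongest peaks of each list, 19.8% and 22.1% lay at promoters in ERY replicates 1 and 2, against 25.02% in CFUE. The same share was 17.3% and 23.03% in the 2 LSK libraries, a gap between replicates of one cell type at least as wide as that between the stages, and 25.6% in CMP. CFUE, CMP and GMP, the lists with the most promoter peaks by this measure, are also the lists with the most repeat peaks (29.4%, 36.6% and 33.4%). The part of library quality in the promoter shares was not tested.

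**Figure D4:**
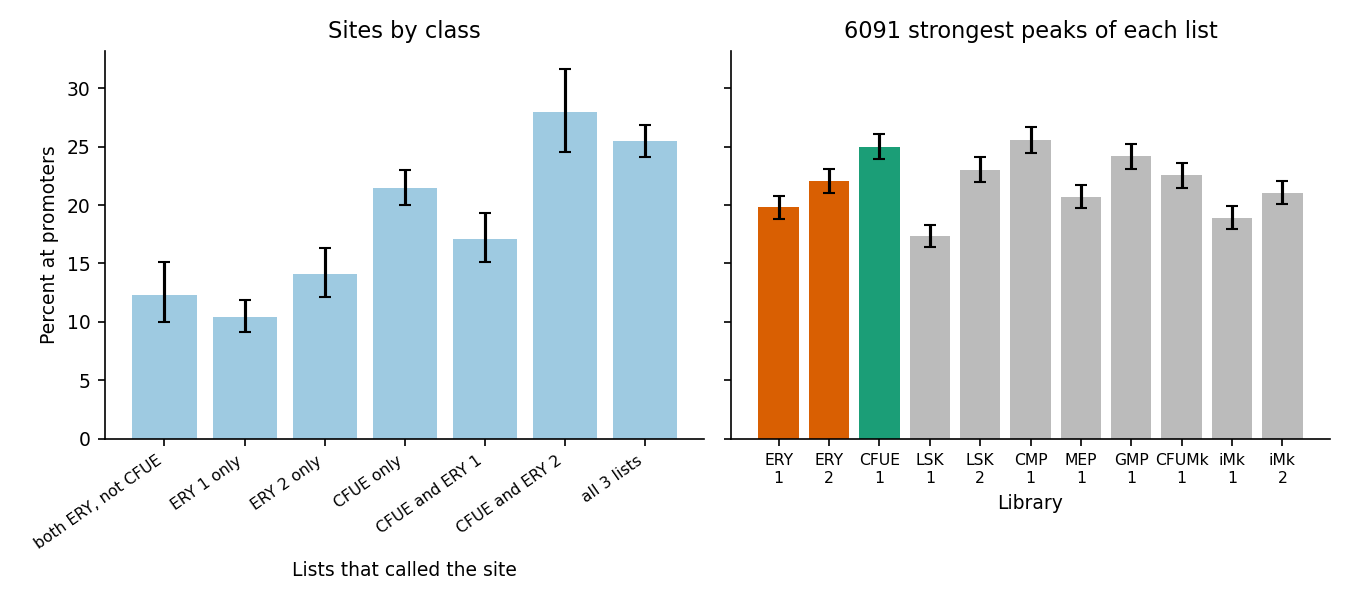
Percent of sites at promoters by class (left) and percent of the 6091 strongest peaks at promoters in each primary blood cell list (right), with 95% Wilson intervals as bars. The ERY lists (19.8% and 22.1%) lie below CFUE (25.02%), and the 2 LSK lists differ by as much (17.3% and 23.03%).

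The 10 strongest sites of both ERY lists and not CFUE had −log10 p of 15.3 to 27.005 in ERY replicate 1 and 12.96 to 27.3 in ERY replicate 2. All 10 held a motif match and all 10 were called in the 8 other primary lists and in the 14 G1E-ER4+E2 lists. The first lies between genes, 30297 bp from the nearest transcript start, that of Mcph1, with −log10 p of 27.005 in ERY replicate 1 and 19.1 in ERY replicate 2. The site near Uqcrfs1, a subunit of respiratory complex III, had 21.1 and 21.5. A site in an intron of Taldo1, transaldolase of the pentose phosphate pathway, had 15.6 and 27.3, and an exonic site of Ksr1, a scaffold of the MAP kinase cascade, had 15.3 and 22.2. Only the site at Add2 lay at a promoter. Add2 encodes beta-adducin, which caps actin filaments in the red cell membrane skeleton, and its site (chr6:86085256-86086053) had 17.3 and 14.7 in the ERY lists and no CFUE peak.

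The 10 strongest sites of CFUE only were less uniform, with −log10 p of 21.1 to 35.6. Of these, 6 held a motif match, 5 lay at promoters, 3 were called in all 8 other primary lists and 2 in none, and 6 were called in none of the 14 G1E-ER4+E2 lists. The strongest, in an intron of Ahnak2, spanned 2157 bp without a motif match. A site near Stk38l spanned 3191 bp, also without a match, whereas the 10 strongest sites of both ERY lists and not CFUE spanned 594 to 910 bp. The promoter sites of Fkbp2, a peptidyl-prolyl isomerase of the endoplasmic reticulum, and Ptms, parathymosin, had 26.0 and 26.7 in CFUE. Fkbp2 was called in all 8 other primary lists and 14 G1E-ER4+E2 lists, and Ptms in 7 and none.

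The strongest site of all 3 lists lay in an intron of Sec22c, which acts in transport from the endoplasmic reticulum to the Golgi, with −log10 p of 146.4 and 193.0 in ERY and 161.0 in CFUE. It was followed by Nemp1, a protein of the nuclear envelope (84.6 and 69.1 in ERY, 89.9 in CFUE), and Gdf15, a secreted factor that human erythroblasts release (84.1 and 92.3 in ERY, 84.8 in CFUE). All 10 of the strongest shared sites were called in every one of the 8 other primary and 14 G1E-ER4+E2 lists.

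Sites were then placed at 8 lists of erythroid genes, counting a site within the gene or 10 kb of it. Of the 131 genes found by symbol, 8 had a site of both ERY lists and not CFUE (6.11%, against 2.98% of the 21911 protein-coding genes), 22 had a site of CFUE only (16.8%, against 12.5%), and 51 had a site of all 3 lists (38.9%, against 18.1%). A site of any class was near 62.6% of them, against 38.9% of all protein-coding genes. Gene length and density were not matched, and no test was made. The lists for comparison gave 0 of 10 stem and progenitor genes, 1 of 12 megakaryocyte genes and 1 of 12 granulocyte and monocyte genes with a site of both ERY lists and not CFUE. They gave 1, 2 and 1 genes with a site of CFUE only.

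**Figure D5:**
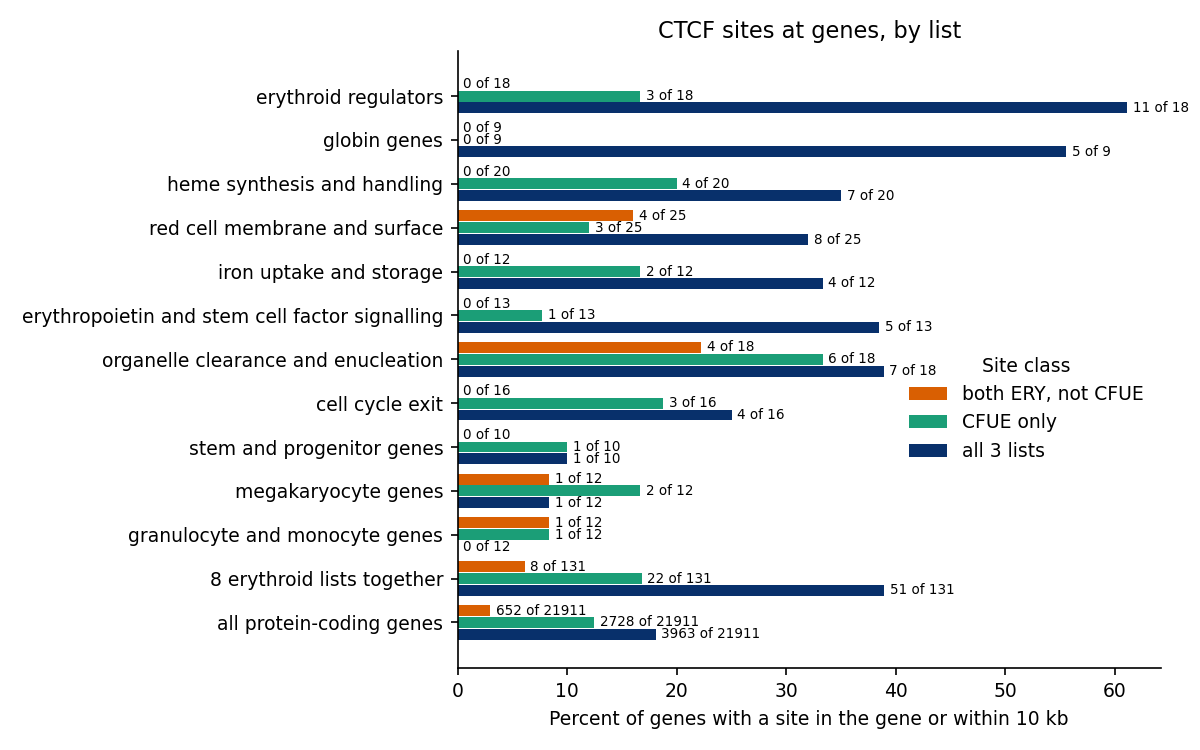
Percent of the genes of each list (x axis) with a CTCF site of each class within the gene or 10 kb of it, with the number of genes beside each bar. Sites of both ERY lists and not CFUE fell in the red cell membrane and the organelle clearance lists (4 of 25 and 4 of 18 genes). No other erythroid list had one, and 2.98% of all protein-coding genes did. A site within 10 kb of both Dmtn and Xpo7 counts in each of these lists.

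The 8 genes with a site of both ERY lists and not CFUE belonged to 2 lists. These were red cell membrane and surface (4 of 25 genes) and organelle clearance and enucleation (4 of 18). Of all protein-coding genes 2.98% had such a site, and whether the 2 lists differ from the others was not tested. Of the membrane genes Add2 is described above. At Dmtn, dematin of the membrane skeleton, and Xpo7, an exportin needed for nuclear condensation in erythroblasts, 1 site near Fgf17 lay within 10 kb of both genes, with −log10 p of 9.41 in ERY replicate 1 and 5.82 in ERY replicate 2. The sites at Slc4a1, band 3 and the anion exchanger of red cells (5.33 and 5.77), and Sptb, beta-spectrin (5.28 and 5.19), were close to the floor of 5 in both ERY lists. Both were called in 3 of the 14 G1E-ER4+E2 lists. Sites at Atg7, an enzyme of autophagy (7.00 and 7.69), and Cit, citron kinase of cytokinesis (7.18 and 5.04), lay in the body of a gene that also held a site of CFUE only. At Atg7 the site of CFUE only lay within 3 kb of the site of both ERY lists, at 5.44 in CFUE. The last, at 7.74 and 5.28, lay in an intron of Rhbdf1 within 10 kb of Nprl3, whose introns hold enhancers of the alpha-globin genes, and was called in all 8 other primary and 14 G1E-ER4+E2 lists. All 7 sites held a motif match and each was called in at least 2 of the 8 other primary lists.

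The 24 sites of CFUE only at 22 erythroid genes mostly lay near the floor of the list. Their −log10 p in CFUE ran from 5.10 to 12.2 with a median of 5.66, against a median of 16.4 in CFUE for the 69 sites of all 3 lists at erythroid genes. Of the 24 sites, 17 held a motif match, 8 were called in all 8 other primary lists and 4 in none. Promoters held 12 of them, either of the list gene or of another gene near it. Among the regulators, Myb, a factor of proliferating progenitors, had an intronic site at 5.18, called in 7 of 8 other primary and 13 of 14 G1E-ER4+E2 lists. Bcl11a, a repressor of embryonic and fetal globin, had a promoter site at 6.01, called in 4 and 1 lists, and an intronic site at 5.10, called in none. Cbfa2t3, the corepressor ETO2, had 1 at 5.45.

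Of the cell cycle list, Myc had a site 1955 bp from its start at 7.33, called in 8 of 8 other primary lists, and its antagonist Mxi1 had a promoter site at 9.77, also called in 8 of 8. The promoter site of Cdk2, which drives entry into S phase, had 6.94 and was called in no other list. Of the heme genes, Abcb10, a mitochondrial transporter, had a promoter site at 7.51 and Eif2ak1, the heme-regulated kinase of eIF2alpha, one at 6.65. Neither was called in another primary or G1E-ER4+E2 list or held a motif match. Urod, uroporphyrinogen decarboxylase (6.15), and Blvrb, biliverdin reductase B (7.37), had sites with a match. These lay in the neighbouring genes Hectd3 and Sertad3. Of the iron genes, Steap3, the ferrireductase of transferrin endosomes, had 2 neighbouring sites at 5.29 and 9.68, both called in 14 of 14 G1E-ER4+E2 lists. They almost adjoin (chr1:120196611-120197099 and chr1:120197112-120197601), and only the second held a motif match. Whether they are 1 bound region was not tested. Aco1, iron regulatory protein 1, had a site at 5.65.

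Of the membrane genes, Ank1, ankyrin of the red cell skeleton, had the strongest of the 24 at 12.2, called in 7 of 8 other primary lists and in none of the 14 G1E-ER4+E2 lists. Dmtn had 1 at 5.65 and Bcam, the Lutheran glycoprotein, 1 at 5.32, which lay in the neighbouring gene Nectin2. Of the organelle list, Atg7 (5.44), Cit (8.81), Diaph1 (5.11), Map1lc3b (5.67), Ube2o (5.38) and Ulk1 (5.32) had 1 site each. In the list of erythropoietin and stem cell factor signalling the single gene was Pim1, a survival kinase, at 5.38 and without a motif match.

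Sites of all 3 lists were the most frequent of the 3 classes at the erythroid genes, as at all protein-coding genes, of which 18.1% had one. They lay at 11 of 18 regulators, 5 of 9 globin genes, 7 of 20 heme genes, 8 of 25 membrane genes, 4 of 12 iron genes, 5 of 13 signalling genes, 7 of 18 organelle genes and 4 of 16 cell cycle genes. The 5 globin genes are all of the alpha-globin cluster and were reached by 2 sites, at Hbq1b and Hbq1a. None of the beta-globin genes listed had a site of all 3 lists. Of the 69 shared sites 66 held a motif match and 64 were called in all 8 other primary lists. With 3 shared sites each, Cbfa2t3, E2f2, Diaph1, Glrx5 and Epb41 had the most. The 3 sites of E2f2, an E2F factor of erythroid cell cycle control, had −log10 p of 21.7, 10.4 and 19.4 in ERY replicate 1, 13.3, 9.07 and 11.7 in ERY replicate 2 and 32.1, 21.7 and 27.8 in CFUE. Those of Epb41, protein 4.1 of the membrane skeleton, had 24.2, 12.3 and 9.02 in ERY replicate 1, 12.6, 11.3 and 5.79 in ERY replicate 2 and 12.96, 15.1 and 9.89 in CFUE. Those of Glrx5, a glutaredoxin of iron-sulfur cluster assembly, had 5.56, 8.53 and 10.1 in ERY replicate 1, 7.72, 15.8 and 9.47 in ERY replicate 2 and 19.8, 12.9 and 10.6 in CFUE. At 2 of the Glrx5 sites, at least 8 of the 9 TAL1 libraries of G1E-ER4+E2 cells also had a peak.

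A few shared sites outside the naming rule were chosen after their values were seen. The promoter site of Klf1, the erythroid Kruppel-like factor, had −log10 p of 21.6 and 35.1 in ERY and 38.0 in CFUE. A site 8528 bp from Tal1 had 16.5 and 12.4 in ERY and 6.94 in CFUE, and all 9 TAL1 libraries had a peak there. At the alpha-globin genes, sites at the promoters of Hbq1b (13.99 and 19.8 in ERY, 24.4 in CFUE) and Hbq1a (20.8 and 13.7 in ERY, 16.5 in CFUE) had the same 19 bp match. The alpha-globin locus is duplicated, and reads may not be assigned to 1 copy with certainty. A total of 49 of the 131 erythroid genes, Gata1, Alas2 and Epor among them, had no site of any class in the gene or 10 kb around it.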

How the data were processed

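CTCF peak lists of 2 ERY libraries and 1 CFUE library were analysed, with 8 further primary, 14 CTCF and 9 TAL1 Pass libraries of G1E-ER4+E2 cells for comparison. The authors mapped reads to mm10 with Bowtie, removed mitochondrial, unplaced and unmapped reads, and called peaks of each library with MACS. Versions in the submitters' notes are 1.0.0 for Bowtie and 1.8.4 for bcl2fastq. The control used for the primary cells and the duplicate handling are not given in the sources used here. The deposited lists give each peak's fold enrichment (a ratio over background) and the −log10 of its p-value by MACS, never below 5, and were used unscaled. Fold enrichment was read only to break ties in rank.

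Starts were read as counted from 0, and positions are printed counted from 1. Peaks with at least 50% soft-masked bases of GRCm38 were left out of the 3 lists (not of the other lists) and the rest merged where they shared 1 bp. Rank is the percentile of −log10 p within a list. The 19 bp matrix was learned in 15 rounds from a seed of 8 bases in the middle 200 bp of 2000 peaks and searched at p = 0.0001 per position. Genes and promoters (1000 bp) are those of GENCODE vM21. Libraries were compared by exact sign-flip permutation tests with Benjamini-Hochberg adjustment, and shares carry Wilson intervals at 95%. Steps were tested on simulated data. Python 3.11.15, numpy 2.4.6 and pandas 2.3.3 were used.

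Named sites were the 10 strongest of each class and each site of the 2 stage classes at an erythroid list gene, and named genes also the list genes with the most shared sites (up to 10). The classes and gene lists were chosen with earlier results of these data known. Of 133 erythroid list genes 131 were found by symbol. Alternatives were other repeat filters, merging up to 500 bp apart, 50% coverage of the site, −log10 p of at least 10, equal numbers of peaks, each ERY library left out, the middle 200 bp, a motif p of 1e-05, promoters of 500 bp and motif sites only. Sites away from promoters and classes of equal list number were added after the data were seen.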

Additional observations from a re-analysis of the deposited data

How the results depend on the processing

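The counts moved with the lists and the peaks admitted. Sites of CFUE only numbered 5937 with no repeat filter, 1062 at −log10 p of at least 10, 1428 with the same number of peaks from each list and 1823 with a motif match required. At −log10 p of at least 10 there were 266 sites of both ERY lists and not CFUE and 1360 of all 3 lists. With ERY replicate 1 or 2 left out, the class in ERY and not in CFUE held 1694 and 2551 sites. The motif share of CFUE only was 40.9% with no repeat filter, 91.8% at −log10 p of at least 10 and 77.9% with equal numbers of peaks. It was 73.6% without ERY replicate 1 and 69.5% without ERY replicate 2, and that of ERY sites not in CFUE was then 78.6% and 76.4%. In the middle 200 bp of each site, the motif shares of both ERY lists and not CFUE, CFUE only and all 3 lists were 88.1%, 47.005% and 87.002%, and at a motif p of 1e-05 they were 88.1%, 48.9% and 89.7%. The promoter shares of the same 3 classes were 8.65%, 17.4% and 21.6% for promoters of 500 bp and 15.8%, 30.1% and 32.8% at −log10 p of at least 10. The promoter share of CFUE only was 12.2% with no repeat filter, 24.5% with the filter at 25% and 24.5% with equal numbers of peaks. That of all 3 lists was 27.7% with the filter at 25%, 23.3% in the middle 200 bp, and 25.7% and 23.3% without ERY replicate 1 or 2.

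The difference in TAL1 overlap, ERY sites minus sites of CFUE only, was 0.50 points without ERY replicate 1 and −0.61 without ERY replicate 2, −0.0756 in the middle 200 bp and 0.0304 away from promoters. Sites of CFUE only minus sites of 1 ERY list only, in the other primary lists, was 0.58 points with equal numbers of peaks. The cause was not tested. The difference between sites of both ERY lists and of CFUE only in the G1E-ER4+E2 lists, 48.0 points, ran between 22.4 points at −log10 p of at least 10 and 63.7 with no repeat filter when both ERY lists were kept. The differences between the classes in the other primary and the G1E-ER4+E2 CTCF lists kept their direction and stayed under p = 0.05 in every other alternative run, except that between sites of both ERY lists and sites of CFUE and 1 ERY list in the primary lists, which passed in none. With 1 ERY library left out, classes of 2 calls cannot be compared and the classes of 1 call are those of the first comparison. For classes of equal list number TAL1 differences were not run under the alternatives. No paired analysis was possible because CFUE has 1 library and the groups share fewer than 2 replicate numbers.

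Depth is unknown, so a missing call cannot be told apart from a shallow library.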

Other observations

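The peaks left out as repeats differed in motif share between the lists. A motif match was found in 65.6% and 70.3% of the 729 and 538 peaks left out of ERY replicates 1 and 2, and in 27.4% of the 3524 peaks left out of CFUE. Of the CFUE peaks left out 66.1% were called in none of the 8 other primary lists, against 32.0% and 25.1% in ERY. The CFUE peaks left out overlapped most often with CMP (21.5%) and GMP (21.4%), the other lists rich in repeat peaks, and with 8.65% to 14.6% in the other 6 lists.

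On the X chromosome 42 of the 71 CFUE sites were in neither ERY list (59.2%), while on the autosomes this share ran between 28.2% on chromosome 11 and 42.7% on chromosome 13. Both ERY lists shared 13 sites on X, of which 4 were not called in CFUE (30.8%). On the autosomes that share ran between 7.80% on chromosome 15 and 20.4% on chromosome 6. Both shares were thus highest on X among these chromosomes, and the counts on X are small.

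By distance, the median site of both ERY lists and not CFUE lay 76.7 kb from the nearest site of all 3 lists, and the median site of CFUE only 99.6 kb from it. Sites of 1 ERY list only lay at medians of 123.4 kb and 110.3 kb for replicates 1 and 2.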
